A study of Mus musculus with 13 samples.

Results

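Intermediate filament genes were followed through whole quadriceps of young and aged mice. The 7 members, Krt18, Krt8, Des, Vim, Nes, Synm and Sync, were taken by name out of 24015 genes listed, and all 7 were among the 11876 genes at a level of 1 or more in TPM, a unit of relative abundance per transcript length, in at least 3 of 13 libraries. The members were chosen by the level of Krt18 in aged against young muscle of batch 1, to which related filament genes were added. Values of the members in that comparison, and in the comparison of batches that shares its aged libraries, are therefore a description without a test. The treatment comparison in batch 2 was not used for the choice and was tested.

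The study measured RNA of quadriceps lysates from C57BL/6 mice. Mice aged 3 months (4 libraries) and mice labelled as older than 24 months (3 libraries) received vehicle and make up batch 1. Batch 2 holds vehicle (3 libraries) and SW033291 at 5 mg/kg (3 libraries), all from mice labelled as older than 24 months. Injections into the peritoneum were given daily for 4 weeks, and the vehicle was ethanol and Cremophor EL in dextrose solution, so every group received injections. SW033291 inhibits 15-PGDH, the enzyme that degrades prostaglandin E2. The labels do not say that each library came from its own mouse, and p-values then rest on the spread between libraries alone, which may be technical. Young muscle exists in batch 1 only and treated muscle in batch 2 only.

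Intermediate filaments are rope-like cytoskeletal polymers built from a large gene family. In muscle fibres, desmin (Des) filaments surround the Z-discs and tie neighbouring myofibrils to one another, to the nuclei and to the costameres at the fibre membrane, and synemin (Synm) and syncoilin (Sync) join or bind these filaments. Vimentin (Vim) is the filament of fibroblasts, endothelial cells and other mesenchymal cells and of immature muscle, and nestin (Nes) accompanies it in progenitors and stays at neuromuscular and myotendinous junctions of adult fibres. Keratin 8 (Krt8, type II) and keratin 18 (Krt18, type I) form obligate pairs in simple epithelia, and have also been described at costameres of striated muscle.

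The promoters of 4 members are printed here because Krt18, Krt8 and Sync stood above every young library in all 6 aged vehicle libraries, whereas Des is the abundant muscle filament gene. Each run is the RefSeq promoter of build GRCm38.p6, 300 bases read 5′ to 3′ on the gene's strand, with 250 before and 50 after the listed start. Krt18 is at chr15:102027966-102028265 (+), Krt8 at chr15:102004293-102004592 (-), Sync at chr4:129287371-129287670 (+) and Des at chr1:75360042-75360341 (+). Capitals mark matches on either strand to the E box CANNTG, the TATA box TATAAA, the GC box GGGCGG and CCAAT.
Krt18: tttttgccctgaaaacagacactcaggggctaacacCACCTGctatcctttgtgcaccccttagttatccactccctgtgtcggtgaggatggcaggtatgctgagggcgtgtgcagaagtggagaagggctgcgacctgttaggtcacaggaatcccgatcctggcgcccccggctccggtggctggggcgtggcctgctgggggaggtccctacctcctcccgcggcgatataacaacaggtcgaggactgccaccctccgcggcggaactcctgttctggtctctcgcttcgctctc
Krt8: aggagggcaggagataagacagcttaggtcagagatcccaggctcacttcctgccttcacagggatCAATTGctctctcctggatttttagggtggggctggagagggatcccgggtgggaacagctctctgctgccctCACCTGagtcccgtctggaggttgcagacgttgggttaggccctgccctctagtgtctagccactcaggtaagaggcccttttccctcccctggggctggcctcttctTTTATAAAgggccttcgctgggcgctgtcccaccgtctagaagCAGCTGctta
Sync: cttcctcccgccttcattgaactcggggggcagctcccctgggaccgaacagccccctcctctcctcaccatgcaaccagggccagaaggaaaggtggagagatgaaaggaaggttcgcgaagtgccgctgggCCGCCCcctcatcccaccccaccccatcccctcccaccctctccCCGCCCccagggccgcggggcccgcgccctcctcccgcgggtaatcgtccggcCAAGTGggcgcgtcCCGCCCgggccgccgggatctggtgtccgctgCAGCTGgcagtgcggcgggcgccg
Des: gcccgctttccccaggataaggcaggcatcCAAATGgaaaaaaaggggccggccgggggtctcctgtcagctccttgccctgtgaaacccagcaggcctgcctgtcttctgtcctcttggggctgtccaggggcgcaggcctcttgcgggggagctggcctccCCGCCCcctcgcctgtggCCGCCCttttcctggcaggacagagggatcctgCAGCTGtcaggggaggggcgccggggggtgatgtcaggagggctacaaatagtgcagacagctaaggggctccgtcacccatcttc
All 7 members had a promoter in the RefSeq table. An E box match was found in 72.3% of all 32851 promoters of this length, a TATA box match in 13.6%, a GC box match in 35.7% and a CCAAT match in 37.4%. Krt18 held 1 E box match and none of the other 3 motifs. Krt8 held 3 E box matches and 2 TATA matches that overlap each other across the listed start. Sync held 2 E box and 3 GC box matches, and Des 2 E box and 2 GC box matches. No motif other than the E box was shared by Krt18, Krt8 and Sync, and a match is a description of the letters only. Krt8 and Krt18 lie on opposite strands of chromosome 15, and 2 predicted genes, Gm36026 and Gm41404, are listed between them in RefSeq.

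Krt18 was listed at 0 in every young library and above 0 in every aged vehicle library. In young vehicle of batch 1 Krt18 was listed at 0 TPM in replicates 1, 3, 4 and 5. In aged vehicle of batch 1 it stood at 3.86, 7.45 and 3.83 TPM in replicates 2, 3 and 4, and in aged vehicle of batch 2 at 2.98, 3.69 and 0.94 TPM in replicates 2, 3 and 8. With SW033291 it stood at 2.38, 2.20 and 0 TPM in replicates 1, 4 and 6. The aged and young vehicle groups did not overlap, aged replicate 3 of batch 1 was the highest library, and 1 treated library was also at 0. Values of 0 began at place 13425 among all genes in that treated library and at places 14202 to 15010 in the young ones. Fewer genes were thus above 0 in the treated library. Krt18 reached 1 TPM in 7 libraries, all of them aged, and so passed the filter on low values through aged muscle only. A fold against young muscle is not computed here, because every young library is at 0 and TPM carry no read counts. In the authors' deposited table of aged against young vehicle, Krt18 had a log2 fold change of 6.84 (SE 1.12, adjusted p 4.69e-07). Which libraries entered it is not known, and with young values at 0 the size of such a fold is uncertain. The authors' mean normalised count was 14.6, and Krt18 took place 5 by log2 fold change and place 34 by p among the 813 genes listed. Aged against young muscle led to the choice of the members, so these values are a description only. The same holds for the authors' values of Krt8 and Sync with age below.

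Krt8, the usual partner of Krt18, was lower than Krt18 in all aged libraries with a value above 0. Krt8 stood at 0.08, 0.09, 0 and 0 TPM in the young libraries. It stood at 0.48, 1.08 and 3.25 TPM in aged vehicle of batch 1, at 0.45, 0.35 and 0.36 TPM in aged vehicle of batch 2, and at 1.53, 0.33 and 0 TPM with SW033291. The 6 aged vehicle libraries all lay above the young ones, but 4 of them stood at 0.48 TPM or less. Among the other keratins, the lowest value above 0 was 0.04 TPM in batch 1 and 0.22 TPM in batch 2. Krt8 in aged vehicle of batch 2 thus lay near the smallest values listed in that batch, and the part of read depth was not tested. Krt8 passed the filter on low values through exactly 3 libraries. The difference of log2(TPM + 1) between aged and young muscle in batch 1 was 1.18 (SE 0.35), a scale on which changes near or below 1 TPM are understated. The authors' deposited table gave Krt8 a log2 fold change of 5.38 (SE 1.24, adjusted p 0.00145). Its mean normalised count there was 5.12, and with young values at or near 0 the size of this fold is uncertain too.

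The keratins did not keep a fixed ratio. Krt18 exceeded Krt8 between 1.18-fold (aged vehicle, batch 1, replicate 4) and 10.5-fold (aged vehicle, batch 2, replicate 3) in the 8 aged libraries where both were above 0. The library with the most Krt18, aged replicate 3 of batch 1, had 1.08 TPM of Krt8, and the library with the most Krt8, replicate 4 of that group, had 3.83 TPM of Krt18. Across the 13 libraries log2(TPM + 1) of the pair had a Pearson correlation of 0.71, and 0.34 once each group's mean was subtracted. Both are descriptions, since the points share groups and batches. SW033291 replicate 6 was at 0 for both genes.

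**Figure D1:**
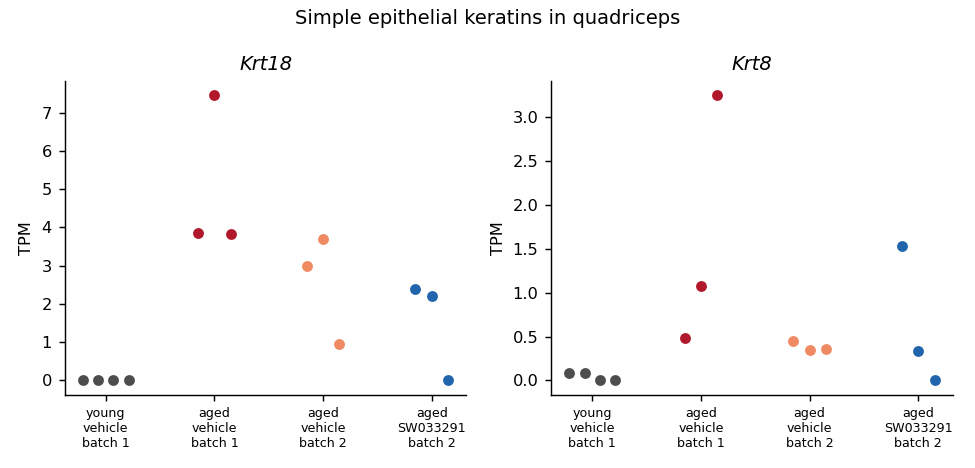
TPM of Krt18 (left) and Krt8 (right) in each library, 1 point per library, by group. All 4 young libraries sit at 0 for Krt18 and at or below 0.09 for Krt8, and the aged points spread from 0 to 7.45 and from 0 to 3.25.

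Other keratins were low in every group. Of 35 other keratin genes in a list written from general knowledge, 16 were above 0 in any library and 1, Krt10, passed the filter on low values. Krt10, a keratin of the upper epidermis, had means of 1.60 ± 0.61 (SD, n = 4) TPM in young and 1.82 ± 0.18 (SD, n = 3) TPM in aged vehicle of batch 1. The next highest by the mean over all 13 libraries were Krt222, at 0.998 ± 0.41 (SD, n = 4) and 0.540 ± 0.20 (SD, n = 3) TPM, and Krt80, at 0.475 ± 0.35 and 0.760 ± 0.27 TPM in the same groups. Summed TPM of the 35 genes ranged from 2.17 to 5.24 in young and from 2.84 to 5.57 in aged vehicle of batch 1, which overlap.

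Epithelial and mesothelial markers were low in every library, but in batch 1 the epithelial sums were higher in aged than in young muscle. Only 1 of 8 epithelial and 0 of 6 mesothelial genes passed the filter on low values, so the others were not tested. The 1 tested gene did not pass the threshold in any comparison. The 8 epithelial genes summed to 0.51 to 1.34 TPM in young, 2.53 to 5.10 in aged vehicle of batch 1, 1.09 to 3.57 in aged vehicle of batch 2 and 0.35 to 1.71 with SW033291. In aged replicates 2, 3 and 4 of batch 1 they summed to 2.55, 2.53 and 5.10 TPM. Krt18 alone stood at 3.86, 7.45 and 3.83 TPM in these libraries. Elf3, an epithelial transcription factor and the only marker of the list to pass the filter, had means of 0.555 ± 0.31 (SD, n = 4), 1.67 ± 0.26, 1.92 ± 1.4 and 0.737 ± 0.34 (SD, n = 3 each) TPM in the same order. Elf3 was highest, at 3.57 TPM, in aged replicate 8 of batch 2, the aged vehicle library with the least Krt18. Epcam, a defining surface marker, was highest at 1.05 TPM in aged replicate 4 of batch 1, the library with the most Krt8, and Cldn3 was at 1.48 TPM there. Between 1 and 7 of the 8 genes were at 0 in each library. The 6 mesothelial genes, led by Gpm6a and Msln, summed to at most 1.86 TPM in any library, with Wt1 and Upk1b at 0 throughout. The part of these cells in the keratin values was not tested, and in whole tissue fewer cells of a type and less RNA per cell cannot be told apart.

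Desmin transcripts dominated the members and were somewhat higher in most aged libraries. Des stood at 1830.4, 1819, 1715 and 1644 TPM in young, and at 2393, 2382 and 1713 TPM in aged vehicle of batch 1. It stood at 2012, 1971 and 2139.8 TPM in aged vehicle of batch 2 and at 1906, 1755 and 2033 TPM with SW033291. Of the 6 aged vehicle libraries 5 lay above all young ones, and aged replicate 4 of batch 1 lay within the young range. The difference of aged from young in batch 1 was 0.29 on the log2(TPM + 1) scale (SE 0.11), against a median of 0.06 over all 11876 genes. Desmin ranked between place 32 and place 49 among all genes in every library.

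Vimentin did not follow desmin. Vim stood at 97.2, 118, 63.3 and 83.5 TPM in young, 62.4, 111 and 56.9 in aged vehicle of batch 1, 73.1, 63.8 and 67.9 in aged vehicle of batch 2, and 105, 68.9 and 55.7 with SW033291. The ranges of all 4 groups overlapped, and the aged minus young difference in batch 1 was -0.27 (SE 0.26). Young replicate 3, aged replicate 3 of batch 1 and SW033291 replicate 1 were the highest, and these were also the libraries highest in 8 Schwann cell markers, with sums of 121, 140 and 145 TPM against 33.0 to 81.5 in the other 10. The part of these cells in the Vim values was not tested. Fibroblast markers moved otherwise: their 10 genes summed to 488 to 585 TPM in young, 179 to 452 and 254 to 323 in aged vehicle of batches 1 and 2, and 142 to 304 with SW033291. Within that list Col1a1, Col1a2 and Col3a1, which encode fibrillar collagens, fell in aged against young muscle, with log2(TPM + 1) differences of -2.17, -1.93 and -1.96 (SE 0.36, 0.30 and 0.36 in that order, limma adjusted p 0.0155, 0.0122 and 0.0314). These calls held in 14, 17 and 10 of 19 alternative analyses. Dcn and Dpt, the most abundant genes of the list beside them, differed by -0.39 and -0.77 (limma adjusted p 0.774 and 0.468).

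Nestin was low and even in young muscle and variable in aged muscle. Nes stood at 11.7, 11.5, 10.7 and 12.0 TPM in young and at 10.6, 20.2 and 8.76 TPM in aged vehicle of batch 1. It stood at 15.2, 17.5 and 12.3 TPM in aged vehicle of batch 2 and at 19.4, 18.3 and 14.2 TPM with SW033291. All 6 libraries of batch 2 lay above all young ones, while 2 of the 3 aged libraries of batch 1 lay below them, so age and batch cannot be told apart here. Aged replicate 3 of batch 1 was the highest library for Nes as it was for Krt18. After group means were subtracted, Nes had a Pearson correlation of 0.72 with Vim and 0.74 with Krt18 over the 13 libraries, given as a description.

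Syncoilin was the only member above every young library in all 9 aged libraries. Sync stood at 22.8, 19.7, 22.2 and 18.4 TPM in young and at 29.6, 35.9 and 44.2 TPM in aged vehicle of batch 1. It stood at 31.5, 48.2 and 41.7 TPM in aged vehicle of batch 2 and at 27.8, 25.2 and 35.6 TPM with SW033291. The mean was 20.8 ± 2.06 (SD, n = 4) in young and 36.6 ± 7.31 (SD, n = 3) TPM in aged vehicle of batch 1, a ratio of 1.76 and a difference of 0.77 on the log2(TPM + 1) scale (SE 0.17). The authors' deposited table listed Sync with a log2 fold change of 0.70 (SE 0.14, adjusted p 8.11e-05). Relative to desmin, Sync amounted to 1.08% to 1.29% of the Des level in young and 1.24% to 2.58% in the 9 aged libraries.

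Synemin had its highest group mean in aged vehicle of batch 2. Synm stood at 246, 266, 283 and 255 TPM in young and at 233, 229.7 and 410.5 TPM in aged vehicle of batch 1. It stood at 503, 535 and 369.7 TPM in aged vehicle of batch 2 and at 335, 412 and 414 TPM with SW033291. Aged replicate 4 of batch 1 reached the level of batch 2, whereas the other 2 aged libraries of that batch lay below all young ones. The aged minus young difference in batch 1 was 0.10 (SE 0.18), and batch 2 exceeded batch 1 in aged vehicle by 0.72 (SE 0.20).

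**Figure D2:**
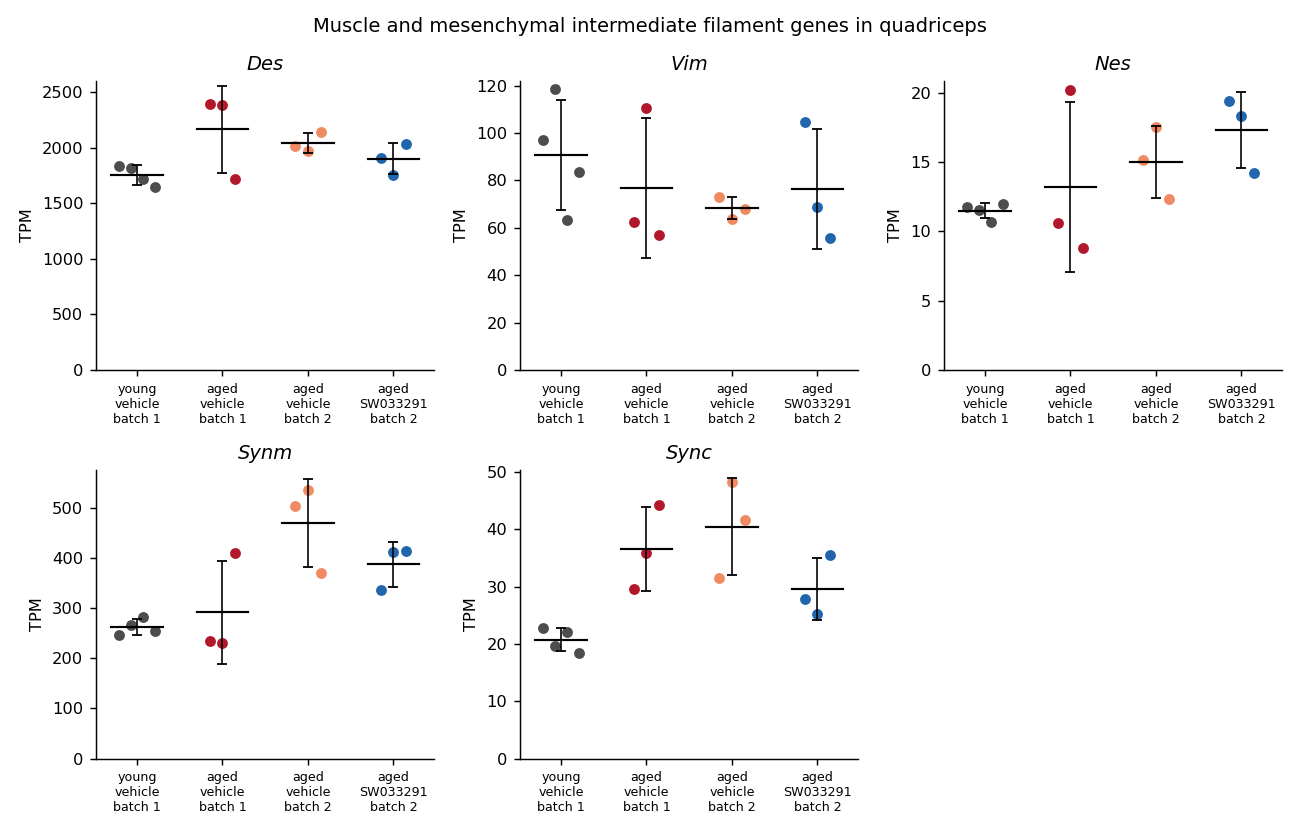
TPM of Des, Vim, Nes, Synm and Sync in each library (points) with the group mean (line) and SD (error bar). Sync is at 25.2 TPM or more in every aged library and at 22.8 TPM or less in every young one, and Synm is at 335 TPM or more in all 6 libraries of batch 2.

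Counted over the members, 1 of 7 (Krt18) passed the threshold of 0.05 on the limma adjusted p in aged against young muscle, where 0.455% of all genes passed. Values of aged libraries lay wholly above the young ones in batch 1 for 3 of 7 members (Krt18, Krt8 and Sync) against 8.85% of all genes. With both batches, all 6 aged vehicle libraries lay above the young ones for the same 3 members against 4.8% of all genes, and all 9 aged libraries for Sync against 3.29%. The choice of members used this comparison, so nothing is read from these counts. Given as a description and not read as a test, the limma adjusted p of Krt18 was 0.0134 with all libraries. It was 0.0510 without young replicate 1 and 0.0502 without aged replicate 3.

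By level per transcript length, the members kept 1 order in all 13 libraries, Des, then Synm, Vim, Sync and Nes, with both keratins lowest. By difference in TPM, group means of Sync and Nes were the nearest neighbours among the muscle members. They were 20.8 ± 2.06 and 11.5 ± 0.55 (SD, n = 4) TPM in young and 29.6 ± 5.41 and 17.3 ± 2.73 (SD, n = 3) TPM with SW033291. In aged vehicle of batches 1 and 2, Sync was at 36.6 and 40.5 and Nes at 13.2 and 15.0 TPM. Vim was at 76.7 and 68.2 TPM there, so by ratio Sync was nearer to Vim. Des made up 74.7% to 87.6% of the summed TPM of the 7 genes, Synm 8.24% to 20.3% and Vim 2.18% to 5.30%. The ratio of Des to Synm ranged from 6.06 to 7.43 in young, stood at 10.3, 10.4 and 4.17 in aged vehicle of batch 1, and ranged from 3.69 to 5.79 in batch 2. The highest and the lowest ratios of batch 1 were both in aged libraries.

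**Figure D3:**
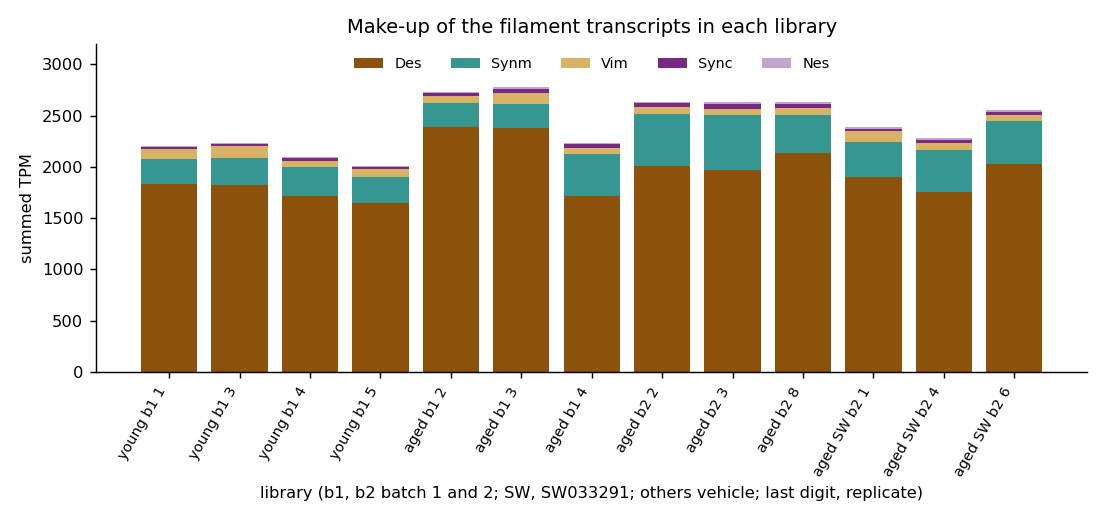
Summed TPM of Des, Synm, Vim, Sync and Nes in each library, stacked (both keratins together add at most 8.53 TPM and are not drawn). Des fills 74.7% to 87.6% of each bar, and Synm takes its largest share, 20.3%, in aged vehicle of batch 2, replicate 3.

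SW033291 was compared with vehicle in aged muscle of batch 2, which tests whether 15-PGDH inhibition moved these genes. None of the 7 members passed the threshold, and neither did any of the 11876 genes (0%). At an unadjusted limma p under 0.05 there was 1 member, Sync, against 10.3% of all genes. Sync was lower with SW033291 by a log2 difference of -0.43 (SE 0.19, limma adjusted p 0.456), or 29.6 ± 5.41 against 40.5 ± 8.42 TPM (SD, n = 3 each), and lower than in batch 2 vehicle in all 16 alternative analyses without passing in any of them. No member's treated and vehicle libraries were separated, whereas 17.1% of all genes were.

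Krt18 differed by -0.58 (SE 0.43) and Synm by -0.27 (SE 0.20), both at a limma adjusted p of 0.627. Des differed by -0.11 (SE 0.12, limma adjusted p 0.745), Vim by 0.11 (SE 0.27, 0.883), Nes by 0.20 (SE 0.24, 0.760) and Krt8 by 0.11 (SE 0.37, 0.916). The median over all genes in this comparison was -0.13, and relative to it Des stood at 0.03 and Synm at -0.13. Signs of Des, Vim and Krt8 turned under 1 alternative each, given in the closing section. In the authors' deposited table of SW033291 against vehicle no member had an unadjusted p under 0.05, against 2.74% of its 16666 genes with a p. The lowest was that of Nes, 0.0895, with a log2 fold change of 0.32 (SE 0.19), and Krt18 had -0.34 (SE 0.91).

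Summed over the members, TPM were 2411 ± 136 with SW033291 and 2637 ± 3.83 with vehicle (SD, n = 3 each), a difference of -226. A two-sided exact permutation test gave p = 0.1, the smallest that 3 against 3 libraries allow, and the difference turned to 30.8 when libraries were rescaled by median-of-ratios factors. Vimentin made up 3.88% ± 1.27 of Vim plus Des with SW033291 and 3.24% ± 0.23 with vehicle (SD, n = 3 each, exact permutation p = 0.6), and without SW033291 replicate 1 the difference was -0.017 percentage points.

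**Figure D4:**
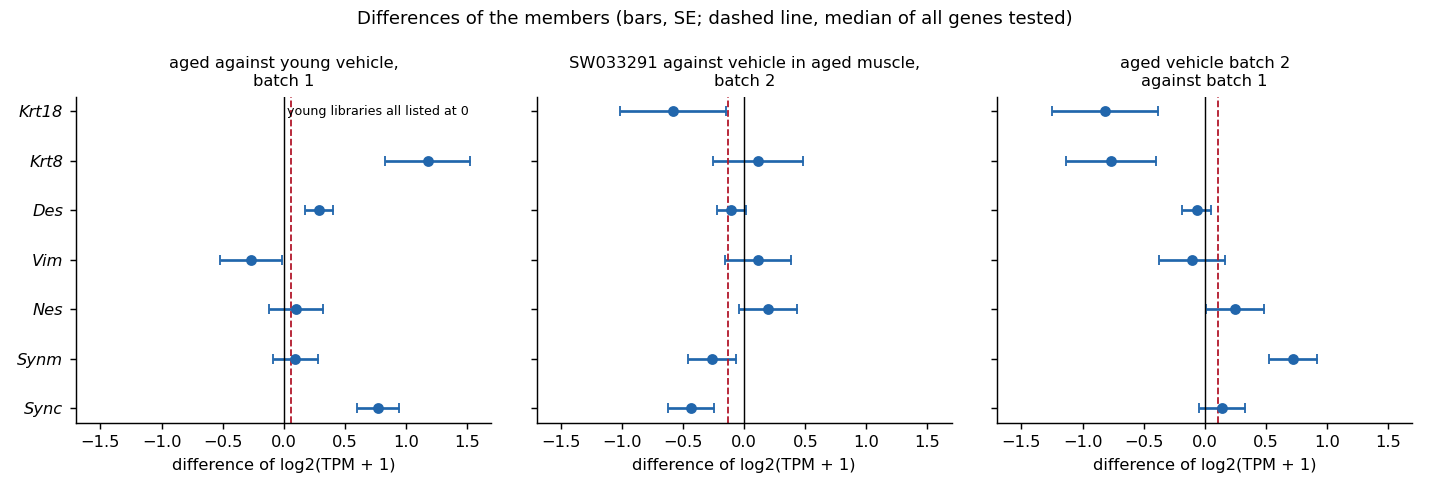
Difference of log2(TPM + 1) for each member (point) with its SE (bar) in 3 comparisons, and the median of all genes tested (dashed line). Krt8 and Sync lie to the right in aged against young muscle (1.18 and 0.77), Krt18 is not drawn there, all young libraries being listed at 0, and all points of the treatment panel lie within 0.58 of 0.

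Aged vehicle libraries carry the same labels in both batches apart from the batch. No member passed the threshold, against 2.25% of all genes (204 higher and 63 lower in batch 2, but 46 higher and 98 lower under median-of-ratios scaling and 53 and 45 under quantile normalization). Within aged vehicle, Krt18 and Krt8 were lower in every library of batch 2 than in every library of batch 1. The differences were -0.82 (SE 0.43) and -0.77 (SE 0.37), and 4.64% of all genes were separated in that direction. The nearest libraries stood at 3.69 and 3.83 TPM for Krt18 and at 0.45 and 0.48 TPM for Krt8. Des differed by -0.07, Vim by -0.10, Nes by 0.24 and Sync by 0.14, against a median of 0.11 over all genes. Synm passed the threshold when aged replicate 4 of batch 1 or aged replicate 8 of batch 2 was left out.

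Synm moved with the long transcripts of each library. Its longest annotated transcript in GENCODE M21 has 7818 bases, longer than 94.4% of the tested genes matched, and Nes follows with 6126, while Krt18 has 1437 and Krt8 1958. In the comparison of batches, genes with transcripts above the upper quartile of length (4706 bases) had a median difference of 0.27 and those below the lower quartile (2106 bases) of -0.07. With SW033291 the same medians were -0.26 and -0.01, and with age 0.10 and 0.08. Per library, the median deviation of long minus short transcripts ran from -0.29 in aged replicate 2 of batch 1, where Synm was at 233 TPM, to 0.40 in aged replicate 3 of batch 2, where it was at 535 TPM. Aged replicate 4 of batch 1 stood at 0.13 and the other 2 aged libraries of that batch at -0.29 and -0.19. Over the 13 libraries this value had a Pearson correlation of 0.95 with log2(TPM + 1) of Synm, 0.56 with Sync, 0.24 with Nes and -0.17 with Des, given as a description. Its part in the Synm values was not tested.

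**Figure D5:**
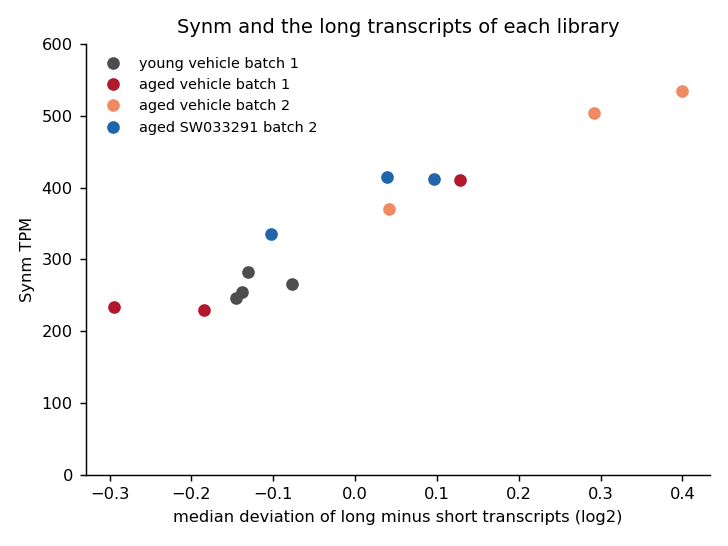
Synm TPM (vertical) against the median log2 deviation of long minus short transcripts (horizontal), 1 point per library, coloured by group. Points climb from 233 TPM at -0.29 to 535 TPM at 0.40, and 1 aged library of batch 1 (0.13, 410.5 TPM) lies among those of batch 2.

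Other genes whose proteins hold filaments in place were followed from lists written from general knowledge. These lists were chosen with earlier results of these data known, so counts over them are a description. No gene of the plakin and desmosome list (7 tested), the costamere and Z-disc list (19 tested), the chaperone and turnover list (15 tested) or the nuclear lamins (3 tested) passed the threshold with age or with SW033291. The median differences with age were 0.08, 0.16, 0.24 and -0.13, and with SW033291 -0.30, -0.29, -0.11 and -0.24, beside medians of 0.06 and -0.13 over all genes. In the costamere list all 19 genes were below 0 with SW033291, where the median of all genes was itself below 0, and 2 were above that median. Under median-of-ratios scaling the plakin, costamere and chaperone medians were 0.01, 0.10 and 0.17 with age. With SW033291 they were -0.17, -0.14 and 0.04, beside -0.004 over all genes, so that the sign for the chaperones turned with treatment.

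Between batches, 1 of 7 plakin and 4 of 19 costamere genes tested were called higher in batch 2, against 2.25% of all genes called in either direction, and none of them under median-of-ratios scaling. Plec, the gene of plectin, which anchors desmin to Z-discs and costameres and has a longest transcript of 15455 bases, was at 82.2 ± 24 TPM in batch 1 and 155 ± 28 TPM in batch 2 (SD, n = 3 each), a difference of 0.93 (SE 0.20, limma adjusted p 0.0315). Of the costamere genes called, Dag1 (dystroglycan, 0.61), Vcl (vinculin, 0.65) and Tln2 (talin 2, 0.82) rose with limma adjusted p of 0.0414, 0.0172 and 0.0414. Under quantile normalization 0 plakin genes and 1 costamere gene were called. In these whole lists 7 of 7 plakin and 18 of 19 costamere genes had differences above 0, with medians of 0.43 and 0.37 against 0.11 over all genes. Hspb2, a small heat shock protein of muscle, fell by 0.54 (SE 0.12, limma adjusted p 0.0346), from 194 ± 20 to 134 ± 19 TPM, a call lost under quantile normalization.

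Other abundant genes of these lists, named here, did not pass in any of the 3 comparisons. Cryab, the αB-crystallin chaperone that binds desmin, had means of 1161 ± 307 TPM (SD, n = 4) in young and 1771 ± 593 TPM (SD, n = 3) in aged vehicle of batch 1, a difference of 0.58 (SE 0.26, limma adjusted p 0.467). Hspb6 and Hspb8, other small heat shock proteins, differed by 0.18 (SE 0.29) and 0.48 (SE 0.17) with age, at limma adjusted p of 0.907 and 0.280. Actn3, the fast-fibre α-actinin of the Z-disc, Neb, nebulin, and Xirp2 differed by -0.17, 0.38 and 0.35 (limma adjusted p 0.667, 0.622 and 0.726). Dst and Jup, a plakin and plakoglobin, differed by 0.20 and 0.08 (limma adjusted p 0.813 and 0.960). Lmna, which encodes the A-type lamins of the nuclear envelope, was at 42.9 ± 2.1 and 55.8 ± 18 TPM, a difference of 0.32 (SE 0.19, limma adjusted p 0.649). Filaments of neurons, glia and lens were near 0: 6 of 8 genes were above 0 anywhere, none passed the filter, and sums stayed at or below 1.35 TPM.

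Genes that respond to loss of nerve supply were followed in the same libraries. This list and the satellite cell list below were chosen with earlier results of these data known. Their counts are therefore a description. Of 12 tested genes of that list 2 rose in aged against young muscle of batch 1, where 0.455% of all genes passed, and all 12 had differences above 0, with a median of 0.99. Gadd45a, a stress gene, rose by 1.50 (SE 0.22, limma adjusted p 0.00793), and Sln, sarcolipin, which inhibits the calcium pump, by 4.40 (SE 0.43, limma adjusted p 0.000541). Chrnb1, an acetylcholine receptor subunit, differed by 0.93 (SE 0.19, limma adjusted p 0.0548). Sums of the 13 genes were 117 to 130 TPM in young, 309 to 563 in aged vehicle of batch 1, 256 to 334 in batch 2 and 195 to 304 with SW033291. The highest, 563 TPM, was aged replicate 3 of batch 1, which also held the most Krt18 and Nes. None of these genes passed with SW033291. Of the satellite cell and regeneration list, 1 of 8 tested genes rose with age, Gm7325, the row of the fusion peptide gene Mymx, by 1.69 (SE 0.31, limma adjusted p 0.0283), a call kept in 8 of 19 alternative analyses. Myog, shared by both lists, Cdh15 and Myod1, its most abundant genes, differed by 0.85, -0.05 and 0.09 (limma adjusted p 0.468, 0.971 and 0.953). The part of either list in the values of the members was not tested.

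Muscle fibre markers were abundant in every library, matching the tissue label, with sums from 142793 to 186502 TPM over 10 genes. Acta1, Tnnt3 and Ckm, the 3 highest, did not pass in any comparison, and Myh4, the fast IIb myosin heavy chain, rose in batch 2 against batch 1 by 1.21 (SE 0.16, limma adjusted p 0.00606). No marker of endothelium, smooth muscle and pericytes, macrophages, neutrophils or Schwann cells passed in any comparison. With age, Cdh5, Egfl7 and Esam of the endothelium differed by -0.46, -0.18 and -0.41, Acta2, Tagln and Rgs5 of smooth muscle and pericytes by -0.39, -0.24 and 0.15, and C1qa, C1qb and C1qc of macrophages by -0.61, -0.37 and -0.52. Neutrophil transcripts were carried by 3 libraries, aged replicate 4 of batch 1 (1713 TPM summed over 7 genes), aged replicate 2 of batch 2 (742 TPM) and SW033291 replicate 4 (222 TPM), against at most 14.0 TPM elsewhere. Aged replicate 4 of batch 1 was also the library with the most Krt8 and with Des and Synm furthest from the other aged libraries of its batch. Without those 3 libraries, a step chosen after seeing the data, Des differed by 0.45 (SE 0.08) with age, against 0.29 with all libraries. Synm then differed by 0.94 (SE 0.16) between batches, against 0.72. Counts of genes and members under this step are in the closing section.

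Genes with the pattern most like each member over the 13 libraries were named by the Pearson correlation of log2(TPM + 1), as a description. Closest to Krt18 were Aif1l (0.938), Cpn1 (0.933), Tmco4 (0.917), Use1 (0.914), Cdkn1a (0.901) and Tubb6 (0.895). Aif1l, an actin-bundling protein gene, had means of 1.39, 8.99, 6.41 and 4.42 TPM in young, aged vehicle of batch 1, aged vehicle of batch 2 and SW033291, and Cdkn1a, the cell cycle inhibitor p21, 13.045, 48.2, 28.0 and 20.9 TPM. All 6 genes had the order of group means that Krt18 has, which the choice by correlation favours. Closest to Krt8 were Hprt (0.909), Lypd6 (0.890) and Swi5 (0.889), and to Sync Lrp2bp (0.940), Bnip3 (0.939) and Abcb1b (0.937).

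The muscle members had other neighbours. Closest to Des were Eef2 (0.930), a translation elongation factor, Neurl2 (0.915) and Ypel3 (0.906). Closest to Vim were Pmp22 (0.975), a myelin protein of Schwann cells that is also in the marker list above, Zfpm1 (0.913) and Sfrp5 (0.910). Closest to Nes were Phyh (0.925), Thoc5 (0.892) and Hpdl (0.890). Closest to Synm were Usp47 (0.981), Usp7 (0.979) and Rap1gds1 (0.978). Their means were highest in aged vehicle of batch 2 (181, 40.3 and 59.1 TPM) like that of Synm, which the choice by correlation favours. Among the members, Des and Synm had a correlation of -0.82 after group means were subtracted. Aged replicate 4 of batch 1 weighs heavily in it, with 1713 TPM of Des and 410.5 TPM of Synm. Replicates 2 and 3 of its group had 2393 and 2382 TPM of Des and 233 and 229.7 TPM of Synm. The correlation without that library was not computed.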

How the data were processed

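Libraries (13, whole quadriceps) were grouped by age, treatment and batch as the labels give them. Tools and build, per the submitters' processing notes, were STAR, RSEM, DESeq2, DESeq and mm9, with no version or annotation named. The authors deposited a TPM table of 24015 genes. It keeps no read counts, so depth and counting error are unknown. Between 10710 and 11687 genes per library reached 1 TPM, and libraries of a group had Pearson correlations of 0.946 to 0.991 with one another, the lowest with aged replicate 4 of batch 1.

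The authors also deposited results of aged against young vehicle (813 genes, all with an adjusted p of at most 0.0999, thus probably an excerpt) and of SW033291 against vehicle. Per the file headers, these hold log2 fold changes with their SE, p-values, a test statistic (a score from DESeq2) and a mean normalised count, which is a signal averaged by the authors. Which libraries entered is not known here.

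In the TPM table gene names and values stood in different orders. With 27 date-like names turned back into symbols and all names sorted, capitals before lower case, mean levels had a Spearman correlation of 0.960 with the authors' deposited table of SW033291, against -0.018 as deposited. Within 101 rows around each member it was 0.925 to 0.992, and at most 0.743 with names moved by 1 row.

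TPM were taken to log2(TPM + 1), and limma 3.58.1 (R 4.3.3) was run on the 11876 genes that reached 1 TPM in 3 or more libraries. One model with a term per group and a variance trend served all 3 comparisons. Benjamini-Hochberg adjustment ran over all genes of each comparison, and an adjusted p under 0.05 counted as passing. On simulated data 67% of genes changed by 1 log2 unit, and 96.5% of those changed by 2, were recovered in the treatment comparison. The changed genes were drawn only from those with a mean log2(TPM + 1) above 2, so these shares do not cover Krt18 and Krt8. Promoters came from RefSeq (GRCm38.p6) and transcript lengths from GENCODE M21, matched by symbol for 95.5% of tested genes. Other tools were Python 3.11.15, pandas 2.3.3 and SciPy 1.17.1.

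The members and the 17 gene lists were chosen with earlier results of these data known. Named are all members, list genes past the threshold in any comparison, the 3 most abundant genes of each list, and the genes most like each member (6 for Krt18, 3 for the others); a gene of the lists that this rule names is not reported here. One neutrophil gene (1 of all listed) was not found, and 3 list genes were found under older symbols. Alternatives were other pseudocounts, filters, scalings and models, and leaving out libraries.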

Additional observations from a re-analysis of the deposited data

How the results depend on the processing

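In aged against young muscle, 54 genes passed the threshold. This count was 27 without a filter on low values, 28 with only the groups compared, 31 without a variance trend, 1679 with aged vehicle of batch 2 in place of batch 1, and 19 to 94 when 1 library was left out. The split of 44 higher and 10 lower became 36 and 20, 41 and 30, and 37 and 28 under the other scalings. Of the members, 1 passed, with 0 to 2 when 1 library was left out (2 without aged replicate 4 of batch 1) and 3 with batch 2 in place (Krt18, Sync and Synm). Without the 3 libraries highest in neutrophil markers, an alternative chosen after seeing the data, 2 passed (Krt18 and Des). The choice of members used this comparison, so nothing is read from these counts of members. With SW033291, 0 genes passed in limma (1221 at an unadjusted p under 0.05), against 4 with a pseudocount of 0.1 TPM, 1 without a trend, 0 to 1 with 1 library left out and 3 without the neutrophil-high libraries, and 0 members passed in all 16 alternatives. Signs turned for Krt8 (-0.23, pseudocount of 0.1 TPM), Des (0.042, median-of-ratios scaling), Vim (-0.14 without SW033291 replicate 1, within -0.14 to 0.31 when 1 library was left out), the summed TPM (30.8, median-of-ratios scaling) and the Vim share (-0.017, without SW033291 replicate 1, within a range of -0.017 to 1.25). Between batches, 267 genes passed, against 144 under median-of-ratios scaling, 98 under quantile normalization, 1 with only the groups compared, 112 without a trend, 1088 without the neutrophil-high libraries and 18 to 1647 with 1 library left out. Members passing there were 0, with 0 to 1 when 1 library was left out and 1 without the neutrophil-high libraries, Synm each time. The causes were not tested.

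Some groups share replicate numbers in the labels. With a replicate block, the count with age was 5 genes and 1 member passed. Between batches it was 1078 genes and 1 member, Synm. Same-numbered libraries share 2 numbers in each comparison. The deviations of these pairs from their group means had correlations of 0.17 and 0.04 with age and -0.15 and -0.06 between batches. Differently numbered pairs ran from -0.26 to 0.28 with age and from -0.18 to 0.19 between batches. With 2 pairs in each comparison, these values cannot decide whether the pairs share more than a number. No paired analysis was possible because the treated and vehicle libraries of batch 2 share no replicate number. TPM without read counts leave the counting error of the keratins, at a few TPM or less, unknown.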
